A study of Homo sapiens with 6 samples.

Results

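The 9 genes described here serve MHC class I presentation: the heavy chain genes HLA-B, HLA-C, HLA-E and HLA-F, the light chain gene B2M, the peptide transporter genes TAP1 and TAP2, the loading factor gene TAPBP and the regulator gene NLRC5. They were chosen by name, with earlier results of these data known. All 9 of the 9 symbols were found among the 23619 gene symbols that each file lists. RNA was sequenced from 3 fludarabine-resistant pools and 3 control pools of HG3, a lymphoblastoid cell line used as a model of chronic lymphocytic leukemia. The pools are numbered 17, 18 and 28 in both groups, with 1 library for each number and group. Fludarabine is a purine nucleoside analogue given against this leukemia. The study asked whether resistant pools differed from the parental cells across the transcriptome, and its title names transposon mutagenesis, in which a mobile element inserts at many places in the genome. The sample titles call the resistant libraries treated and the others control, so treatment and resistance cannot be told apart here. The labels give neither the dose nor the time of the drug, and do not say whether control pools carry insertions too. All 6 libraries come from 1 cell line. The labels do not state that pools of 1 group were grown as separate cultures, so the p-values reflect only how far these libraries spread, which may be technical.

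MHC class I molecules show peptides from inside the cell to CD8 T cells. Proteasomes cut proteins into peptides, the TAP transporter carries these into the endoplasmic reticulum, and tapasin, the product of TAPBP, helps to load them onto a heavy chain paired with beta-2 microglobulin. HLA-B and HLA-C are classical, highly variable heavy chains, whereas HLA-E and HLA-F vary little and are also seen by receptors of natural killer cells. NLRC5 is a co-activator recruited to class I promoters by factors bound at their X and Y boxes, and interferons and NF-kB raise the same genes through sites of their own.

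RefSeq gives a promoter window for 7 of the 9 genes, from 250 bases before to 50 after the annotated start, on GRCh38.p14; HLA-E and NLRC5 are named only. The stretches below come from within 200 bases before the start and are written 5′ to 3′ on the strand of the gene. They are shown for matches to short motifs of the kinds bound by factors that recruit NLRC5, by interferon factors and by NF-kB. Not every stretch holds every motif, and a match need not be a known site. Capitals mark every match, on either strand, to the Y box CCAAT, the X2 box core TGACG, the interferon regulatory factor core AANNGAAA, a longer interferon-response form (GAAA, any 2 bases, GAAA), which overlaps that core, and the kappaB consensus. The build differs from the authors' hg19, and no coordinate was used for a measurement.
HLA-B (chr6:31357223-31357364, minus strand): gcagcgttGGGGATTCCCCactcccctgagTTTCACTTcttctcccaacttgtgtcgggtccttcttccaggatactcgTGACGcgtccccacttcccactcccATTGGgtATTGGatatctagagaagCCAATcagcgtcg
HLA-C (chr6:31272136-31272292, minus strand): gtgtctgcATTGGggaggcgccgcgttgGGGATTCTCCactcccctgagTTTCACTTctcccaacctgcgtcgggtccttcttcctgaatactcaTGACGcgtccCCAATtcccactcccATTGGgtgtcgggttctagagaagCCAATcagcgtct
HLA-F (chr6:29723270-29723389, plus strand): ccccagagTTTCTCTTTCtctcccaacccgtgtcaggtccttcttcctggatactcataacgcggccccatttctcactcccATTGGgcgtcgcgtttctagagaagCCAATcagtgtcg
B2M (chr15:44711365-44711480, plus strand): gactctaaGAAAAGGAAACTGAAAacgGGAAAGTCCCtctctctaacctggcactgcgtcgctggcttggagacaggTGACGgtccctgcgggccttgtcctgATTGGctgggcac
TAP1 (chr6:32853759-32853846, minus strand): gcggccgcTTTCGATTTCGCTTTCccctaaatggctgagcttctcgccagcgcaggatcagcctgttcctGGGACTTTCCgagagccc
TAP2 (chr6:32838762-32838809, minus strand): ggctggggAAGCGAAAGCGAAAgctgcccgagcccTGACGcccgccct
TAPBP (chr6:33314075-33314142, minus strand): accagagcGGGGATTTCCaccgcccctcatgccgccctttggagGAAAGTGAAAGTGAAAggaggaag

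HLA-B, HLA-C and B2M held both CCAAT and TGACG in their windows, as did 8.69% of the 35116 promoter windows in the RefSeq table. HLA-F had CCAAT without TGACG. Each of the 7 genes had the core AANNGAAA, which 22.8% of all windows held. The longer form was in the windows of HLA-F, B2M, TAP1, TAP2 and TAPBP, and in 3.57% of all windows. The kappaB consensus was in those of HLA-B, HLA-C, B2M, TAP1 and TAPBP, and in 11.3% of all. TAP1 has a second listed start, whose window held none of these. A match describes letters in the reference sequence and is not evidence of a bound factor in HG3.

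Values are FPKM, fragments scaled by transcript length and library size, so levels of different genes can be set side by side. Absolute depth cannot be read from such files. The steps of low values put relative depth between 1 in control 17 and 1.31 in resistant 28, and 10936 to 11331 genes per library reached 1 FPKM. The 7 B cell markers were present in every library (summed level 860 to 1143 FPKM in resistant and 715 to 1045 FPKM in control libraries). Of 21 markers of T, NK, myeloid, fibroblast and erythroid cells, 3 passed the filter on low values, and the T cell receptor components CD3D, CD3E and CD3G stayed at or below 0.238 FPKM. TRAT1, a T cell adaptor gene, had 11.7 FPKM in resistant 18 and at most 2.55 FPKM elsewhere. In the same library CD3D, CD3E and CD3G were at 0. Of the 5 myeloid markers, ITGAM had 6.05 FPKM in resistant 18 and at most 1.91 FPKM elsewhere, and CSF1R had 1.97 FPKM there and at most 1.09 FPKM elsewhere. CD14 was at 0 in resistant 18, and LYZ had its lowest value there, 0.0457 FPKM. Limma's array weights set resistant 18 apart, at 0.162 against 1.03 to 1.93 for the other 5 libraries.

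Class I genes were strongly expressed in both groups. Over the 6 libraries the mean level was 4208 FPKM for B2M, 2189 FPKM for HLA-B, 686 FPKM for HLA-C, 481 FPKM for HLA-E and 178 FPKM for HLA-F. TAPBP averaged 85.0 FPKM and TAP1 82.3 FPKM, followed by NLRC5 at 19.5 FPKM and TAP2 at 19.4 FPKM. Ranges of neighbours in this order did not overlap, with 3 exceptions. HLA-C was above HLA-E in 5 of 6 libraries, and resistant 18 was the exception. TAPBP was above TAP1 in the 3 controls and below it in the 3 resistant libraries. NLRC5 was likewise above TAP2 in the 3 controls and below it in the 3 resistant libraries.

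**Figure D1:**
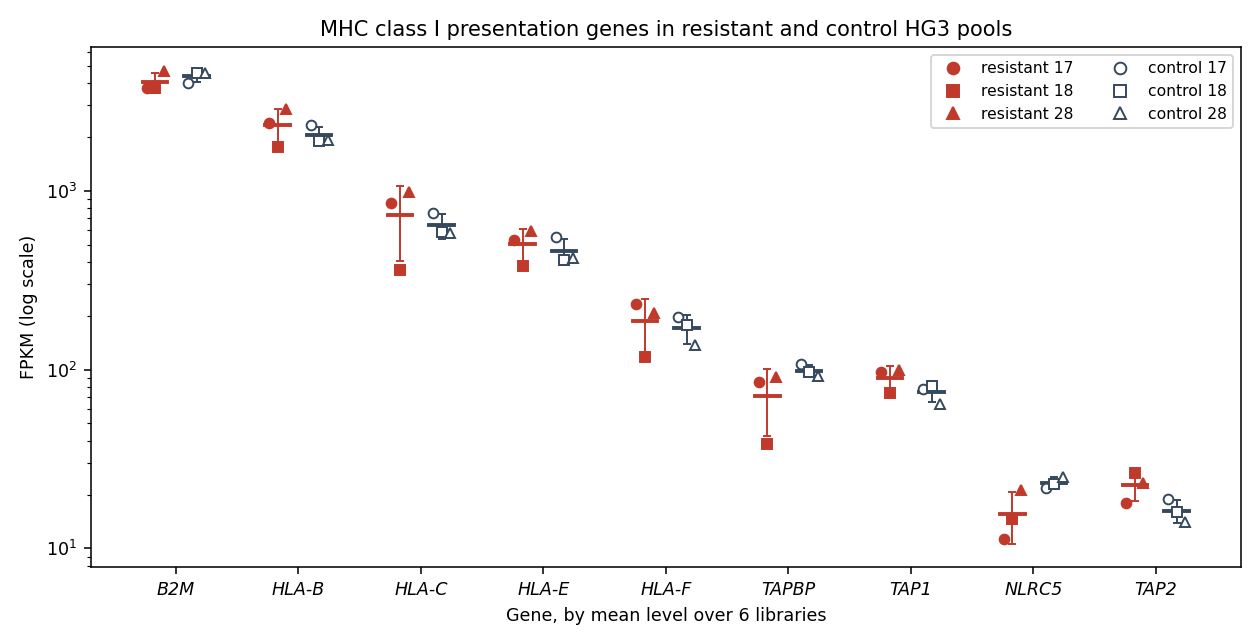
Level of each gene in FPKM on a log axis, with resistant libraries (filled) left of control libraries (open), pools by symbol, and the mean with its SD over 3 libraries as a bar. NLRC5 and TAPBP have every resistant library below every control, and HLA-C and TAPBP are lowest in resistant 18.

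None of the 9 genes passed in limma after Benjamini-Hochberg adjustment across the 11307 tested genes (0 of 9, adjusted p from 0.357 to 0.954). All 9 passed the filter of at least 1 FPKM in at least 3 libraries. The background was 4 of 11307 genes, 0.0354%, with 0.0177% higher and 0.0177% lower. At an unadjusted p under 0.05, 1 of 9 was called, against 13.1% of all genes; it was lower, as were 7.14% of all genes. The median log2 difference of the 9 genes was 0.09, against 0.01 over all genes tested. Differences are on the log2(FPKM + 1) scale, resistant minus control. In bulk RNA, a difference in the share of cells that express a gene and a difference in RNA per cell cannot be told apart.

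NLRC5, the class I co-activator, had the lowest p of the 9. It had 11.3, 14.5 and 21.1 FPKM in resistant pools 17, 18 and 28, against 21.8, 22.9 and 25.2 FPKM in the controls of the same pools. Every resistant library was below every control, and resistant 17 was the lowest. Means were 15.6 ± 5.02 FPKM in resistant and 23.3 ± 1.76 FPKM in control libraries (SD, n = 3 each), 1.49-fold lower. The log2 difference was -0.59 (SE 0.23, 95% interval -1.13 to -0.04, limma unadjusted p = 0.0393, adjusted p = 0.357). Pool 17 had the largest difference, -0.89, followed by pool 18 with -0.62 and pool 28 with -0.25. With 1 library left out, limma's unadjusted p for NLRC5 was under 0.05 without resistant 28 (0.00564). It was above 0.05 without resistant 17 (0.13), resistant 18 (0.0662) or any 1 of the 3 controls (0.0673 to 0.111).

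TAPBP encodes tapasin, the chaperone that bridges TAP and the heavy chain. It had 84.9, 38.3 and 91.1 FPKM in resistant 17, 18 and 28, against 107, 96.5 and 91.9 FPKM in controls 17, 18 and 28. The groups did not overlap, but in pool 28 the libraries were nearly equal and in resistant 18 the level was far below the rest. The log2 difference was -0.55 (SE 0.33, 95% interval -1.33 to 0.23, limma adjusted p = 0.513), made up of -0.33, -1.31 and -0.01 in pools 17, 18 and 28. Without resistant 18 it was -0.16 (limma adjusted p = 0.502).

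NLRC5 and TAPBP were the 2 of 9 genes whose resistant libraries all lay below the controls, against 11.1% of all genes tested. They were also the 2 of 9 that were lower in all 3 pools, against 18.7% of all genes. No gene of the 9 had all resistant libraries above the controls (10.1% of all genes), and none was higher in all 3 pools (18.8%).

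TAP1 and TAP2 form the peptide transporter as a pair. TAP1 had 96.5, 73.9 and 99.9 FPKM in resistant 17, 18 and 28, against 77.9, 81.2 and 64.4 FPKM in the controls. Resistant 17 and 28 were above all controls and resistant 18 was among them. The log2 difference was 0.26 (SE 0.19, 95% interval -0.19 to 0.72, limma adjusted p = 0.592), with 0.30, -0.13 and 0.62 in pools 17, 18 and 28. TAP2 had 18.0, 26.4 and 23.1 FPKM in resistant 17, 18 and 28, against 18.8, 16.0 and 13.96 FPKM in the controls. It was the one gene of the 9 that was higher in pool 18, and only resistant 17 lay within the range of the controls. Its log2 difference was 0.44 (SE 0.20, 95% interval -0.03 to 0.90, limma unadjusted p = 0.0611, adjusted p = 0.399), with -0.06, 0.69 and 0.69 in pools 17, 18 and 28.

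HLA-B, a classical heavy chain and the most abundant of the 4, had 2383, 1750 and 2849 FPKM in resistant 17, 18 and 28, against 2319, 1909 and 1926 FPKM in the controls. The groups overlapped, with resistant 28 the highest of the 6 libraries and resistant 18 the lowest. The log2 difference was 0.16 (SE 0.27, 95% interval -0.47 to 0.79, limma adjusted p = 0.84), with 0.04, -0.13 and 0.56 in pools 17, 18 and 28.

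HLA-C, the other classical heavy chain listed and a ligand of killer-cell receptors, varied more. It had 853, 360 and 985 FPKM in resistant 17, 18 and 28, against 755, 585 and 579 FPKM in the controls. Its resistant libraries held both the highest value and the lowest, so that the mean hardly differed while the spread was wide. The log2 difference was 0.08 (SE 0.39, 95% interval -0.84 to 1.01, limma adjusted p = 0.954), from 0.18 in pool 17, -0.70 in pool 18 and 0.77 in pool 28.

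HLA-E, which presents leader peptides of other class I chains to natural killer cells, had 529, 381 and 594 FPKM in resistant 17, 18 and 28, against 551, 409 and 423 FPKM in the controls. HLA-F, a less studied heavy chain also bound by natural killer cell receptors, had 234, 118 and 207 FPKM in the resistant and 198, 176 and 137 FPKM in the control libraries. For both genes resistant 18 was the lowest of the 6 libraries. The log2 differences were 0.11 (SE 0.25, 95% interval -0.47 to 0.69) for HLA-E and 0.09 (SE 0.30, 95% interval -0.61 to 0.78) for HLA-F, with limma adjusted p of 0.885 and 0.932.

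B2M, the invariant light chain, was the steadiest gene among the resistant libraries. It had 3752, 3744 and 4665 FPKM in resistant 17, 18 and 28, against 3999.6, 4553 and 4536 FPKM in the controls. The groups overlapped, and the log2 difference was -0.11 (SE 0.25, 95% interval -0.70 to 0.48, limma adjusted p = 0.885). The highest and lowest resistant libraries differed by 0.32 on the log2 scale for B2M, against 1.45 for HLA-C and 1.23 for TAPBP. Among controls this gap was 0.19 for B2M, 0.38 for HLA-C and 0.22 for TAPBP.

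The 3 pools did not move alike. Differences within a pool set the resistant library against the control of the same number, and the labels do not say what that number means. In pool 28, 7 of the 9 genes were higher in the resistant library (49.3% of all genes), and the median of the 9 was 0.56 against -0.01 for all genes tested. In pool 18, 1 of 9 was higher (53.4% of all genes), with a median of -0.28 against 0.05. In pool 17, 4 of 9 were higher (47.2% of all genes), with a median of -0.06 against -0.03. HLA-B, HLA-C, HLA-F and TAP1 were higher in pools 17 and 28 and lower in pool 18. This was 4 of 9 genes, against 13.9% of all genes. Each pool has 1 library on each side, so these differences have no replicate check, and the difference between pools was not tested. Genes of 1 pathway need not vary independently, so counts of the 9 here and below are descriptions only.

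A size of 0.5 on the log2 scale, chosen after the values were seen, was passed upward in pool 28 by HLA-B, HLA-C, HLA-F, TAP1 and TAP2. That was 5 of 9 genes, against 15.7% of all genes. It was passed downward in pool 18 by HLA-C, HLA-F, TAPBP and NLRC5, 4 of 9 against 19.7% of all genes. In the opposite directions, 1 of 9 passed it upward in pool 18, TAP2, against 21.3% of all genes, and 0 of 9 downward in pool 28, against 15.8%. In pool 17, 1 of 9 passed it downward, NLRC5, against 9.30% of all genes, and 0 of 9 upward, against 9.94%.

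**Figure D2:**
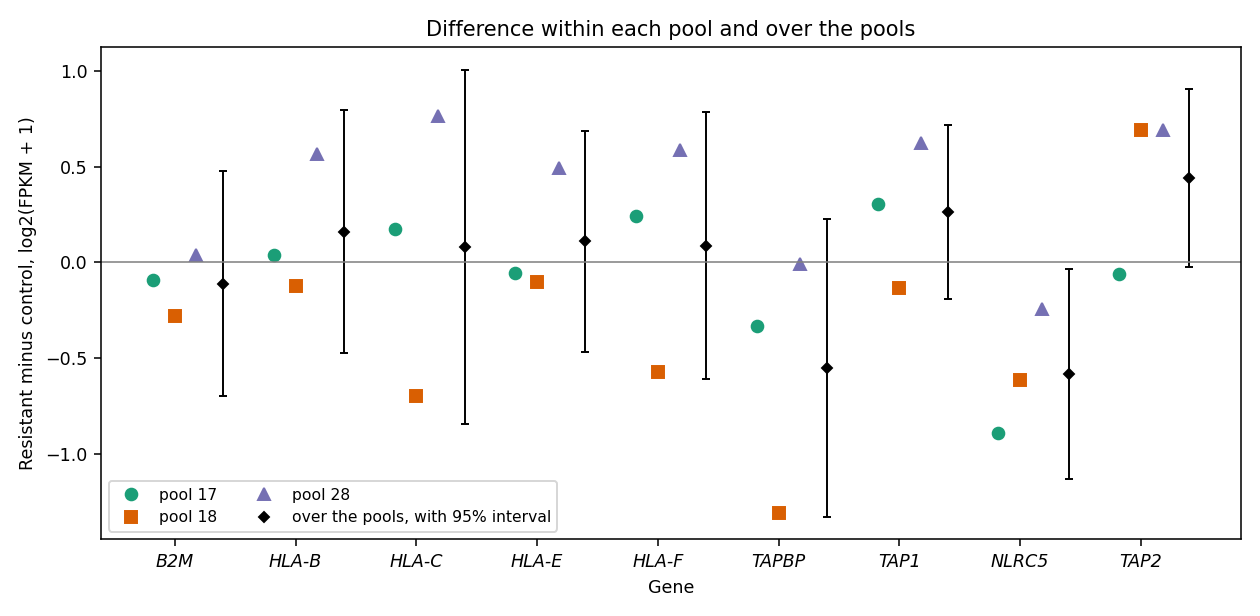
Resistant minus control on the log2(FPKM + 1) scale for each gene, within pools 17, 18 and 28 (coloured symbols, 1 library per side) and over the pools (black diamond with limma's 95% interval). HLA-C spans -0.70 in pool 18 to 0.77 in pool 28, and the interval of NLRC5 alone lies below 0.

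Resistant 18 was below both other resistant libraries for 7 of the 9 genes, against 37.7% of all genes tested. For HLA-C and TAPBP it was over 1 lower on the log2 scale than the mean of resistant 17 and 28 (-1.34 and -1.18), 2 of 9 genes against 7.24% of all. With resistant 18 left out, HLA-B, HLA-C, HLA-F and TAP1 had both other resistant libraries above all 3 controls. That was 4 of 9 genes, against 20.1% of all genes, and 2 of 9 were below the controls, against 25.1%. These counts were made after the data were seen. The 4 genes are those given above as higher in pools 17 and 28 and lower in pool 18, so the values are the same. Without resistant 18 the log2 difference became 0.53 for HLA-C, 0.40 for TAP1, 0.38 for HLA-F and 0.35 for HLA-B, with limma adjusted p from 0.185 to 0.355. The part of resistant 18's low array weight, or of the marker values given above, in these results was not tested.

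Ratios within a library do not depend on how that library was scaled. The ratio of HLA-B to HLA-C was 2.79, 4.86 and 2.89 in resistant 17, 18 and 28, against 3.07, 3.26 and 3.33 in the controls. Controls kept within a narrow band, and resistant 18 lay above it while resistant 17 and 28 lay below it. The summed level of the 4 listed heavy chains was 1.07, 0.697 and 0.994 of B2M in resistant 17, 18 and 28, against 0.956, 0.677 and 0.676 in the controls. Control 17 was closer to resistant 28 than to the other controls in this ratio. HLA-C alone was 0.227, 0.0963 and 0.211 of B2M in the resistant and 0.189, 0.129 and 0.128 of B2M in the control libraries. TAP1 was 5.36, 2.80 and 4.32 times TAP2 in the resistant and 4.14, 5.08 and 4.61 times TAP2 in the control libraries.

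Immunoproteasomes carry PSMB8, PSMB9 and PSMB10 in place of the constitutive catalytic subunits PSMB5, PSMB6 and PSMB7, and yield peptides suited to class I. The ratio of PSMB8 to PSMB5 was 1.28, 0.621 and 0.922 in resistant 17, 18 and 28, against 0.788, 0.860 and 0.741 in the controls. That of PSMB9 to PSMB6 was 0.429, 0.142 and 0.469 in the resistant and 0.481, 0.432 and 0.440 in the control libraries. The ratio of PSMB10 to PSMB7 was 1.70, 0.993 and 1.44 in the resistant and 1.35, 1.39 and 1.05 in the control libraries. In all 3 ratios resistant 18 was the lowest of the 6 libraries. PSMB5, PSMB6 and PSMB7 had their highest levels there, at 201, 373 and 207 FPKM. PSMB8, PSMB9 and PSMB10, at 125, 52.9 and 206 FPKM in resistant 18, lay within the range of the controls.

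**Figure D3:**
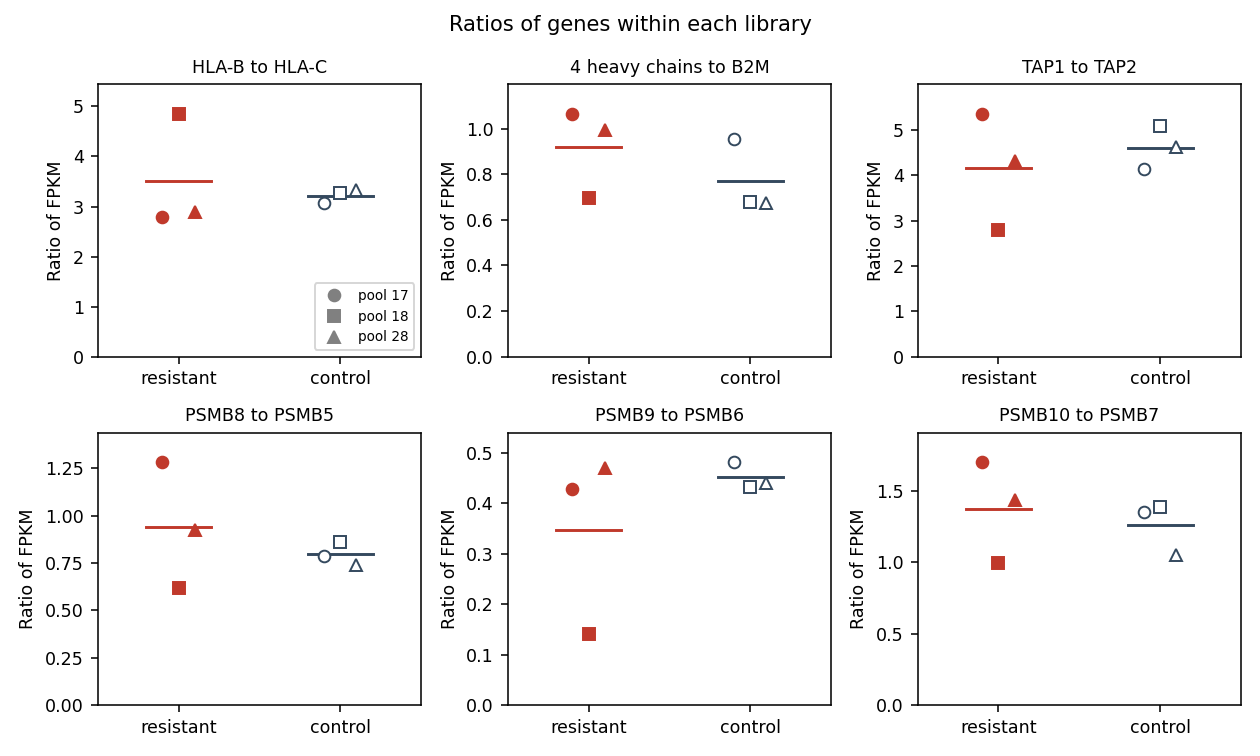
Ratio of FPKM within each library, resistant (filled) left of control (open), with pools by symbol and a line at the mean of 3 libraries. Resistant 18 has the highest ratio of HLA-B to HLA-C, 4.86, and the lowest ratio of PSMB9 to PSMB6, 0.142.

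Other genes of the pathway were examined in 10 lists of 97 genes, and 0 of them passed the adjusted threshold in either direction. With limma's array weights 1 passed, IRF9, and 0 passed under each of the other 15 alternatives. Of the 79 tested, 4 were higher and 5 lower at an unadjusted p under 0.05, against 5.99% and 7.14% of all genes. From each list with tested genes, the 2 of lowest p are named.

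Among genes of peptide supply, a list held immunoproteasome subunits, activator subunits and the assembly factor POMP. All 6 had positive differences, against 51.6% of all genes, with a median of 0.29. Higher in all 3 pools were 4 of 6, against 18.8% of all genes. The immunoproteasome subunits PSMB8, PSMB9 and PSMB10 differed by 0.14, 0.28 and 0.12. Of these, only PSMB8 was higher in all 3 pools. POMP, which assembles proteasomes, had 98.9, 116 and 89.8 FPKM in resistant 17, 18 and 28, against 82.3, 85.9 and 68.4 FPKM in the controls (log2 difference 0.36, limma adjusted p = 0.449). PSME2, a subunit of the PA28 activator, had 472, 703 and 483 FPKM in the resistant and 402, 481 and 390 FPKM in the control libraries (0.36, limma adjusted p = 0.543). All 3 resistant libraries lay above all controls for POMP, whereas for PSME2 resistant 17 was below control 18. Of the 3 constitutive subunits, PSMB6 was higher in every resistant library, at 162, 373 and 177 FPKM against 138, 139 and 96.5 FPKM (0.84, SE 0.35, limma adjusted p = 0.371). PSMB5 differed by -0.04. Without resistant 18 the log2 difference was 0.46 for PSMB6, 0.17 for PSME2 and -0.27 for PSMB5, and without pool 17 it was 0.22 for PSMB5. PSMB9, an immunoproteasome subunit, differed by -0.06 without pool 28.

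Peptide trimming had a median of -0.27 over 9 genes, with 6 lower, 3 higher and 4 lower in all 3 pools, against 18.7% of all genes. LNPEP, an aminopeptidase that trims peptides in endosomes, had 23.6, 24.3 and 23.8 FPKM in resistant 17, 18 and 28, against 35.0, 34.0 and 44.5 FPKM in the controls. Its groups did not overlap, and the log2 difference was -0.63 (SE 0.16, limma unadjusted p = 0.00603, adjusted p = 0.21). NPEPPS, a cytosolic aminopeptidase, differed by -0.76 (SE 0.31, limma adjusted p = 0.371), and by -0.41 without pool 28. Loading chaperones had a median of 0.11 over 8 genes, 6 of them higher. PDIA3, the oxidoreductase of the loading complex, had 55.9, 74.7 and 67.3 FPKM in the resistant and 51.5, 47.3 and 52.7 FPKM in the control libraries, without overlap (0.37, limma adjusted p = 0.412, and 0.23 without pool 18). TAPBPL, the tapasin-related peptide editor, differed by 0.36 (limma adjusted p = 0.43).

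The factors that bind X and Y boxes, listed with CIITA, had a median of 0.12 over 9 genes, with 5 higher and 4 lower. RFX5, the X box factor with which NLRC5 works, had 58.2, 63.6 and 55.8 FPKM in resistant 17, 18 and 28, against 41.2, 39.5 and 31.3 FPKM in the controls. All 3 resistant libraries were above all controls, and the log2 difference was 0.66 (SE 0.17, limma unadjusted p = 0.00605, adjusted p = 0.21), positive in all 3 pools. NFYA, a Y box factor, differed by -0.28 (limma adjusted p = 0.574), with -0.12 without control 28 and -0.43 without control 17.

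IRF, STAT and NF-kB factors had a median of 0.12 over 15 genes, 11 of them higher, with 3 of 15 wholly above the controls (10.1% of all genes) and 3 of 15 wholly below them (11.1%). IRF9, the DNA-binding part of the type I interferon complex, had 54.8, 41.0 and 58.7 FPKM in resistant 17, 18 and 28, against 30.3, 33.2 and 28.4 FPKM in the controls (log2 difference 0.72, SE 0.19, limma adjusted p = 0.21). With limma's array weights, which count resistant 18 little, IRF9 differed by 0.82 (adjusted p = 0.0343), and over the 16 alternatives its adjusted p ran from 0.0343 to 0.923. RELA, the p65 subunit of NF-kB, had 11.3, 9.11 and 11.2 FPKM in the resistant and 14.5, 14.3 and 16.0 FPKM in the control libraries (-0.47, SE 0.15, limma adjusted p = 0.285). Neither gene's groups overlapped. Among interferons, receptors and JAK kinases, 10 of 13 genes were tested, 6 higher and 4 lower. SOCS3, an inhibitor of cytokine signalling, differed by 0.53 (limma adjusted p = 0.294) and the receptor gene IFNAR2 by -0.62 (limma adjusted p = 0.535), with -0.24 without pool 28 and -1.07 without control 17. IFNA1 was listed at 0 in all 6 libraries, and IFNB1 and IFNG stayed under 1 FPKM.

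Genes that repress class I or turn it over had a median of -0.26 over 11 tested, with 5 higher and 6 lower. In all 3 pools 6 of 11 were lower, against 18.7% of all genes, and 2 of 11 were higher, against 18.8%. Wholly below the controls were 3 of 11 (11.1% of all genes), and 1 of 11 was wholly above them (10.1%). SYVN1, an E3 ligase of the endoplasmic reticulum, had 2.04, 2.55 and 2.46 FPKM in resistant 17, 18 and 28, against 2.86, 4.76 and 4.51 FPKM in the controls (log2 difference -0.57, SE 0.20, limma adjusted p = 0.305). WWP2, another E3 ligase, had 11.4, 12.0 and 11.5 FPKM in the resistant and 15.0, 14.2 and 15.7 FPKM in the control libraries (-0.34, SE 0.14, limma adjusted p = 0.365). Neither gene's groups overlapped.

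Of 16 other class I-like genes and pseudogenes, 8 were tested, 4 higher and 4 lower. HLA-H, a pseudogene, had 57.6, 49.98 and 60.6 FPKM in resistant 17, 18 and 28, against 56.3, 32.5 and 38.4 FPKM in the controls (log2 difference 0.43, limma adjusted p = 0.47), with 0.26 without control 18 and 0.65 without control 17. FCGRT, the heavy chain of the neonatal Fc receptor, differed by 0.53 (limma adjusted p = 0.583), with 0.99 without resistant 18 and 0.27 without resistant 28. HLA-G lay between 1.29 and 1.95 FPKM in all 6 libraries. None of the 6 NKG2D ligands of the ULBP and RAET1 family was tested, and none exceeded 0.117 FPKM. MICA and MICB, NKG2D ligands counted here among the class I-like genes, were tested. MICA had 17.4 to 29 FPKM and MICB 11.5 to 20.1 FPKM over the 6 libraries.

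**Figure D4:**
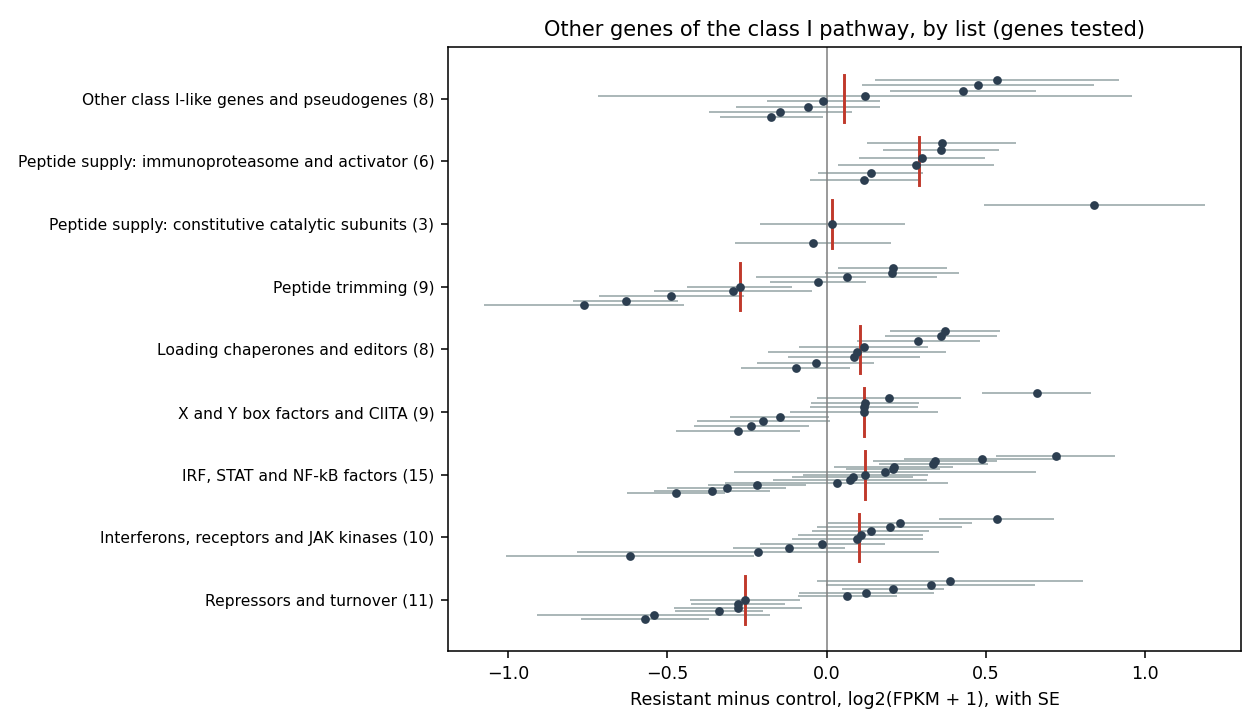
Resistant minus control on the log2(FPKM + 1) scale for the 79 tested genes of the other class I lists, with SE as bars and each list's median as a red line. All differences of the immunoproteasome and activator list are above 0, with a median of 0.29, but the SE bars of PSMB8 and PSMB10 cross 0. Limma's 95% interval, not drawn, includes 0 for all 6 genes of that list. The trimming and repressor lists have medians of -0.27 and -0.26.

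The mean profile of the 9 genes, each centred on its own mean log2(FPKM + 1), was 0.06, -0.36 and 0.29 in resistant 17, 18 and 28 and 0.13, -0.01 and -0.10 in controls 17, 18 and 28. It was lowest in resistant 18 and highest in resistant 28. Other tested genes whose profiles were closest to it over the 6 libraries were ZCRB1, TYW3, NUDT16L1, RIOK1, CCDC28A and RANBP3. The root mean square distance was 0.04 to 0.06 on the log2 scale for these 6. Among the 9 genes, the distance of each to the mean of the other 8 was 0.11 for HLA-B and 0.12 for HLA-E, but 0.43 for TAP2 and 0.44 for NLRC5.

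Class I heavy chains resemble one another, and reads from their shared stretches can be placed on the wrong gene. In GENCODE v29 transcripts, 5.38% of the distinct 50-base windows of HLA-C, 4.34% of those of HLA-E, 2.72% of those of HLA-B and 0.977% of those of HLA-F occurred exactly in another gene. The share was 31.3% for TAP2, most often with another annotated gene, AL669918.1, 4.17% for TAPBP, 0.88% for TAP1, and 0% for B2M and NLRC5. For TAP1, TAP2 and TAPBP the share with HLA genes was 0%. Alleles carried by HG3 were not examined and can differ from the reference at HLA-B and HLA-C, so their levels, and their ratio, are uncertain to that extent.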

How the data were processed

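Each of the 6 deposited files holds the authors' FPKM, per the file headers, for 23619 gene symbols, with commas as decimal marks. Tools named in the submitters' processing notes are TopHat2 2.0.4, HTSeq 0.6.1, Cufflinks 2.2.1 and DESeq2, and the build is hg19. Which step each tool served, the annotation, read length and strand handling are not given there. The files hold no counts, so no count model was fitted and no counting interval could be given. A gene was tested if at least 3 of 6 libraries reached 1 FPKM, which left 11307. Testing used limma 3.58.1 (R 4.3.3; lmFit, then eBayes with a trend; two-sided) on log2(FPKM + 1), and p-values were adjusted across these genes by Benjamini-Hochberg at 0.05. Adding 1 understates differences of low genes. The fit was tested on simulated data, with the same spread in every library and larger differences than any found for the members. That test cannot show how the fit handles smaller differences or a library set apart, such as resistant 18. The members and lists were chosen with earlier results of these data known. List genes were named where they passed (at most 4), otherwise as the 2 of lowest p. TRAT1, ITGAM, CSF1R, CD14, LYZ, CD3D, CD3E, CD3G, IFNA1, IFNB1, IFNG, MICA and MICB were picked after their values were seen. The submitters describe the pools as pairs, and same-numbered libraries were taken as pairs, although the labels do not say what a shared number means. Their deviations from group means correlated at 0.148, 0.0892 and -0.0243 in pools 17, 18 and 28. The fit had no block for the pairs, and a fit with it was an alternative.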

Additional observations from a re-analysis of the deposited data

How the results depend on the processing

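In limma, 0 of the 9 genes passed under any of the 16 alternatives, and their adjusted p ranged from 0.149 to 0.999. The fit with the replicate block changed no call among the 9 and gave 3 calls over all genes; NLRC5 had an adjusted p of 0.333 there. Over all genes, 301 passed with array weights, and 3 to 18 with a library or pool left out (13 without resistant 18, 18 without pool 18, 8 without resistant 17). Genes of the 9 at an unadjusted p under 0.05 numbered 2 with median-of-ratios scaling or array weights, and 0 to 2 with libraries left out. They numbered 0 without any 1 control library and 2 (HLA-C and TAP1) without resistant 18. The median of the 9 was 0.32 with array weights and ran from -0.16 without pool 28 to 0.32 without resistant 18. Genes wholly above the controls, counted after the data were seen, numbered 0 to 4 with libraries left out. They were 4 without resistant 18 or pool 18 (20.1% and 26% of all genes) and 1 without resistant 17, control 17 or pool 17 (14.6%, 16.2% and 20.7%). Those wholly below numbered 2 to 3, against 13.3% to 29.3% of all genes. NLRC5, TAPBP, TAP1 and TAP2 kept their direction under every alternative. Of 144 log2 differences recomputed, 13 had the other sign. With quantile normalization B2M had 0.14 and HLA-F -0.0047. With libraries left out, HLA-B ran from -0.043 to 0.35, HLA-C from -0.26 to 0.53, HLA-E from -0.080 to 0.295 and HLA-F from -0.16 to 0.42. All 4 had negative values without resistant 28 or pool 28, HLA-C and HLA-F also without resistant 17, and HLA-F without control 28. The cause was not tested. Depth is known only in relative terms, which limits what can be said of genes near 1 FPKM.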
